A study of Homo sapiens with 6 samples.

Results

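Receptor-type tyrosine phosphatases were described through 8 genes, PTPRA, PTPRE, PTPRF, PTPRG, PTPRJ, PTPRK, PTPRM and PTPRS, taken by symbol from the 30493 genes of the deposited read count table. The 8 genes were picked with results of the same knockdown against control comparison in view, so their differences between the groups are given as a description and carry no test. All 8 were among the 17089 genes with enough counts to be fitted. The libraries came from A549, an established human lung adenocarcinoma cell line: 3 were labelled as carrying a control plasmid and 3 as STAU1 knockdown. The STAU1 product binds double-stranded stretches of RNA and is known from mRNA localisation and from the decay of bound mRNAs. The titles of the knockdown samples carry the prefix si, the labels name neither the reagent nor any other allele or agent. Nothing in the labels tells if the 3 libraries per group are independent cultures, and the p-values then cover only their spread, which may be technical.

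Receptor-type tyrosine phosphatases span the plasma membrane and remove phosphate from tyrosines, opposing the tyrosine kinases. Their outer parts resemble cell adhesion molecules, and several bind matrix proteoglycans or the same phosphatase on a neighbouring cell. Most carry a pair of phosphatase domains inside the cell, of which the one next to the membrane does most of the catalysis through a cysteine that attacks the phosphate. In lung epithelium and its tumours they act on Src family kinases, growth factor receptors and the cadherin-catenin complexes of cell junctions.

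The coding stretches below show the catalytic loop that unites these genes, 24 bases for the 8 residues from the histidine to the arginine of the Cys-X5-Arg signature in the membrane-near domain. They run 5′ to 3′ on the coding strand, from GENCODE 29 transcripts (GRCh38), with the codon of the catalytic cysteine in capitals.
PTPRF: cacTGCagcgcgggcgtgggccgc
PTPRS: cacTGCagtgccggtgtgggccgc
PTPRK: catTGCagtgctggtgctggacga
PTPRM: cacTGCagtgctggtgcagggagg
PTPRJ: catTGCagtgctggggtcggaagg
PTPRA: cacTGCagtgcaggtgtagggcgt
PTPRE: cacTGTagcgcgggcgtgggccgg
PTPRG: cacTGCagtgctggtgtgggcaga
All 8 DNA stretches differed, but they encode only 2 versions of the loop: PTPRK and PTPRM share one, the other 6 genes share the other, and the versions differ at 1 residue. The stretches lie at chr1:43619195-43619303 (plus strand), chr19:5212235-5212344 (minus), chr6:127983362-127985728 (minus), chr18:8376193-8376477 (plus), chr11:48163611-48164395 (plus), chr20:3022213-3022704 (plus), chr10:128068279-128069707 (plus) and chr3:62271548-62272961 (plus), in the order of the list. Each range holds an intron, since an exon junction falls inside the loop. A further match to the signature, also across an exon junction, was found nearer the C terminus in 6 of the 8 genes, which gave 14 matches in all. PTPRJ, which has a single phosphatase domain, and PTPRG had 1 match each.

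Reads of the 8 genes could largely be told from each other. No 31-base word was shared with another family gene for PTPRA, PTPRE, PTPRG, PTPRJ, PTPRK or PTPRM, and PTPRF and PTPRS shared 21 and 14 such words with other family genes. The share of a gene's 31-base words found in the transcripts of any other gene was between 0.0597% (PTPRM) and 1.74% (PTPRF), except for PTPRA at 11.6%. In PTPRA these were 529 words shared with VPS16, a vesicle-tethering gene on the same strand whose annotated exons overlap those of PTPRA over 558 bases. The VPS16 counts were 1251, 1109 and 1281 in controls against 1107, 1142 and 1340 in knockdown libraries, so the level of PTPRA is uncertain by what the counting gave to VPS16. An antisense gene, PTPRG-AS1, overlaps PTPRG exons over 1207 bases. It had 23, 30 and 34 counts in controls and 17, 24 and 21 in knockdown libraries, and no source used here gives the strand setting of the counting.

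The libraries held between 30354219 and 35431441 counts. STAU1, the targeted gene, had 120.5, 124.5 and 117.1 CPM (counts scaled to library size with TMM factors) in control replicates 1 to 3 and 16.0, 15.7 and 14.6 CPM in knockdown replicates 1 to 3, a log2 fold change of -2.97 (SE 0.04). Mitochondrially encoded genes took 17.3% to 17.9% of control counts and 15.8% to 16.1% of knockdown counts, and their part in the results below was not tested. All 8 epithelial markers were detected, led by KRT8 at 4371 CPM and KRT18 at 4128 CPM in controls. The summed level of these 8 markers was 10300 to 10380 CPM in controls and 7573 to 7806 CPM in knockdown libraries, and the keratins KRT8, KRT18 and KRT7 carried that sum. The markers did not move together: these 3 and CLDN4 fell, CDH1 (log2 0.50), EPCAM (0.22) and MUC1 (0.17) rose, and KRT19 was not called. Markers of other cells were low: the sums were 14.4 to 16.3 and 17.7 to 20.7 CPM for 5 of 8 immune markers, 4.52 to 5.32 and 7.03 to 8.12 CPM for 5 of 8 endothelial markers, which include PTPRB, and 10.3 to 11.2 and 15.5 to 17.3 CPM for 8 fibroblast markers, with controls given first. CD14 carried most of the immune sum, at 12.75 CPM in controls and 15.94 CPM in knockdown libraries (log2 0.33). LUM (6.05 and 9.91 CPM, log2 0.71) and THY1 (3.64 and 5.15 CPM, log2 0.50) carried most of the fibroblast sum. They, CD14 and PDGFRA (0.212 and 0.449 CPM, log2 1.07) were called higher, and 0 markers of either list were called lower. Over all genes tested 22.2% were called higher. Of the endothelial markers, CDH5 rose from 0.802 to 1.64 CPM (log2 1.03), and PTPRB had 3.67 CPM in controls and 5.58 CPM in knockdown libraries. PECAM1 had 0.312 and 0.389 CPM and was not called, and KDR (0.0215 and 0.0383 CPM) and VWF (0.0321 and 0.0526 CPM) had too few counts to be fitted. The other immune and endothelial markers, PTPRC, CD3E, CD3D, TIE1, ERG and CLDN5, were not listed in the count table under these symbols. The part of these markers in the results was not tested.

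Per unit of length, PTPRA was the most abundant of the 8 in control cells and PTPRE the least. PTPRA, whose product activates Src family kinases by removing their inhibitory phosphate, stood at 16.5, 17.0 and 16.7 FPKM (the authors' length-scaled values) in control replicates 1 to 3. It made up 42.5% of the summed control FPKM of the 8 genes. PTPRF (6.17 ± 0.0700 FPKM), PTPRM (5.4 ± 0.117), PTPRJ (5.21 ± 0.108), PTPRK (3.11 ± 0.0666), PTPRS (1.87 ± 0.03), PTPRG (0.737 ± 0.0404) and PTPRE (0.160 ± 0.0100) followed as control means (SD, n = 3 each). The control values of PTPRM and PTPRJ overlapped, so these neighbours were not separated, while all other neighbours in the order were apart in every control library. Between the ends of this order the mean control levels differed 105-fold. In knockdown libraries this pair was in the opposite order and apart: PTPRJ had 8.19, 8.5 and 8.78 FPKM and PTPRM 7.15, 7.25 and 7.62 FPKM. The knockdown values of PTPRJ overlapped those of PTPRF, at 8.35, 8.78 and 8.62 FPKM.

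**Figure D1:**
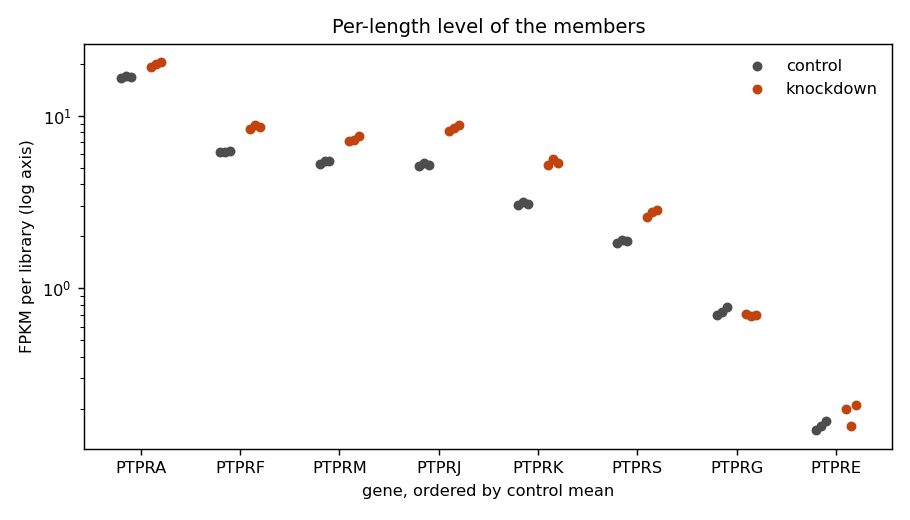
Deposited FPKM (log axis) of the 8 genes, ordered by control mean, with 1 point per library and dark points for controls, orange for knockdown. PTPRA lies at the top near 16.7 FPKM in controls and PTPRE at the bottom near 0.160 FPKM, and the control points of PTPRM and PTPRJ overlap.

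In the fit over all genes, 7 of the 8 genes had a higher level in knockdown than in control libraries and PTPRG a lower one. At an adjusted p under 0.05 (quasi-likelihood fit of edgeR, Benjamini-Hochberg over all genes) 6 were called higher, 1 lower and 1 was not called. Over all genes tested the background was high, with 44.2% called, 22.2% called higher and 22.0% called lower. The split of calls depended on the scaling: 50.3% of called genes were higher in the fit used here, 69.5% with total-count scaling and 77.3% on log2(FPKM + 1). The median log2 fold change of the 8 was 0.35, where that of all genes tested was -0.0004. With a loess offset for gene length the median of the 8 was 0.26. The groups did not overlap for 7 of the 8 genes, where 51.4% of all genes tested had groups that did not overlap, and all knockdown libraries lay above all controls for 6 of the 8, where the share over all genes was 25.8%. Because the genes were picked on this comparison, nothing is read from these counts. In bulk RNA, fewer cells of a kind and less RNA per cell cannot be told apart.

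Among the 8 genes, PTPRK and PTPRJ had the largest fitted differences. PTPRK belongs to the R2B subfamily, with a MAM domain and immunoglobulin and fibronectin repeats outside the cell, binds itself on neighbouring cells, and acts on catenins and EGFR. Its transcript stood at 33.4, 34.97 and 33.7 CPM in control replicates 1 to 3 and at 53.5, 57.6 and 52.7 CPM in knockdown replicates 1 to 3. Every knockdown library lay above every control by at least 17.7 CPM, and the fitted difference was 1.604-fold (log2 fold change 0.68, SE 0.04). PTPRM, of the same subfamily and a binder of E-cadherin and p120 catenin complexes, went from 63.9, 66.4 and 66.3 CPM to 81.6, 82.0 and 83.6 CPM. Its groups were also apart, with a fitted 1.26-fold difference (log2 0.33, SE 0.03).

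PTPRJ, of the R3 subfamily with fibronectin repeats, dephosphorylates growth factor receptors such as MET and EGFR. It stood at 60.3, 63.1 and 60.8 CPM in controls and at 90.9, 93.5 and 93.7 CPM in knockdown libraries. The knockdown values clustered within 3 CPM of each other and lay at least 27.8 CPM above the highest control, the widest gap in CPM among the 8 genes, and the fitted difference was 1.51-fold (log2 0.59, SE 0.03).

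PTPRF and PTPRS encode the R2A or LAR-type receptors, which bind heparan sulfate proteoglycans outside the cell and liprins inside it. PTPRF had 80.2, 81.0 and 81.7 CPM in controls and 103, 107.5 and 102 CPM in knockdown libraries, apart by at least 20.8 CPM (1.29-fold, log2 0.37, SE 0.03). PTPRS had 19.3, 20 and 19.6 CPM in controls. Its knockdown libraries had 25.5, 27.2 and 27.0 CPM, again all above the controls (1.35-fold, log2 0.44, SE 0.05).

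The R4 receptors PTPRA and PTPRE, with short outer parts, showed small differences. PTPRA had 79.2, 82.1 and 79.4 CPM in controls and 86.0, 88.9 and 88.3 CPM in knockdown libraries. These groups did not overlap, but the gap was 3.90 CPM and the fitted difference 1.09-fold (log2 0.13, SE 0.03), which was 0.21 with total-count scaling and 0.24 on log2(FPKM + 0.1). PTPRE, a close relative with a form that stays in the cytosol, had 64, 67 and 72 counts in controls and 80, 67 and 95 in knockdown libraries. On the CPM scale these were 2.06, 2.19 and 2.26 against 2.56, 2.10 and 2.63, with knockdown replicate 2 inside the control range. Its fitted log2 difference was 0.16 with an SE of 0.16, and it went to 0.10 without knockdown replicate 3, to 0.26 without knockdown replicate 2, to 0.07 with the length offset and to 0.04 on log2(FPKM + 1).

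PTPRG, the R5 receptor with a carbonic anhydrase-like outer domain that binds contactins, was the one lower gene. It had 12.5, 13.2 and 13.9 CPM in controls and 11.99, 11.6 and 11.3 CPM in knockdown libraries. The groups lay next to each other with a gap of 0.513 CPM, and the fitted log2 difference was -0.18 (SE 0.07). This difference depended on the setting. It was -0.10 with total-count scaling, -0.03 on log2(FPKM + 1), -0.06 on log2(FPKM + 0.1) and -0.30 with the length offset, and its call was lost with total-count scaling, with no filter on low counts, with DESeq2, on both FPKM scales, and without control replicate 2 or 3 or knockdown replicate 2 or 3. Without those libraries in turn the values were -0.18, -0.14, -0.18 and -0.16. On the deposited FPKM scale its groups overlapped, at 0.700, 0.730 and 0.780 in controls and 0.710, 0.690 and 0.700 in knockdown libraries.

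**Figure D2:**
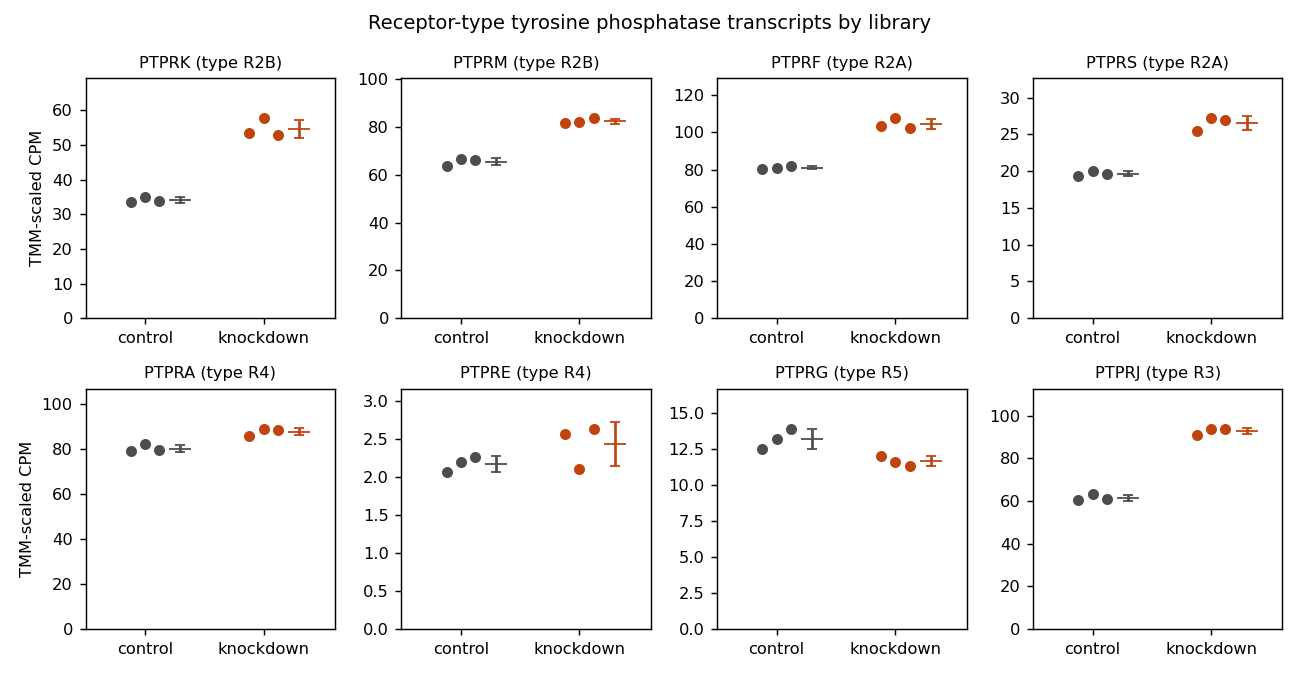
TMM-scaled CPM of the 8 genes in each library (points, with the replicates from left to right) and the mean ± SD of 3 libraries beside them, each vertical axis from 0. Knockdown points lie above control points for 6 genes, with the widest gaps in CPM for PTPRJ and PTPRF, overlap for PTPRE and lie below for PTPRG.

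Summed over the 8 genes, the transcripts made up 357 ± 6.06 CPM (SD, n = 3) in controls, and 462.5 ± 7.63 CPM (SD, n = 3) after knockdown. The make-up of this pool on the per-length scale was similar in order: PTPRA made up 42.5% of the summed mean FPKM in controls and 37.2% in knockdown libraries, PTPRJ 13.2% and 16.0%, and PTPRK 7.89% and 10.1%.

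The rest of the family was looked at through 12 further symbols, of which 9 were listed in the count table and 8 could be fitted. This set is what the choice of the 8 genes left over, so it is described without a test too. All 8 had a positive fitted difference, 5 of them called at an adjusted p under 0.05 and 3 not, with a median log2 fold change of 0.50. Together with the 8 genes above, 16 receptor-type phosphatases were fitted, with 11 called higher and 1 lower, where 22.2% of all genes tested were called higher and 22.0% lower. The median of the 8 further genes was 0.11 on log2(FPKM + 1). Nothing is read from these counts either.

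PTPRU, also of the R2B subfamily and another homophilic adhesion receptor, had 21.8, 22.3 and 21.4 CPM in controls and 28.0, 28.6 and 29.8 CPM in knockdown libraries (log2 0.40, SE 0.05). It was the only one of these 8 above 6 CPM, and its groups were apart by 5.69 CPM. The other 7 were scarce. PTPRN2, a membrane protein of secretory granules, had 85, 75 and 81 counts in controls and 143, 153 and 156 in knockdown libraries (log2 0.82, SE 0.13). PTPRB, known from endothelium, had 131, 103 and 109 counts in controls and 174, 188 and 191 in knockdown libraries (log2 0.60, SE 0.12). Both had groups that did not overlap. PTPRQ, known from the inner ear, had 23 to 25 counts in controls and 41 to 52 in knockdown libraries (log2 0.81, SE 0.24). PTPRH had a log2 difference of 0.37 (SE 0.13), a call that was lost with DESeq2 and without control replicate 2 or knockdown replicate 3, where the values were 0.37, 0.28 and 0.33. PTPRD, also LAR-type, had 0.20 (SE 0.13), PTPRO 0.67 (SE 0.40) and PTPRR 0.05 (SE 0.29), and these 3 were not called. PTPRD had 0.11 with the length offset. PTPRO had 0.33 without knockdown replicate 3. PTPRR had -0.07 without knockdown replicate 1, -0.20 without knockdown replicate 2 and 0.37 without knockdown replicate 3. On log2(FPKM + 1) the values of the scarce genes shrank, to 0.35 for PTPRN2, 0.15 for PTPRB, 0.19 for PTPRH, 0.06 for PTPRQ, 0.07 for PTPRD and 0.02 for both PTPRO and PTPRR. PTPRN had too few counts to be fitted, and PTPRC, PTPRT and PTPRZ1 were not listed in the count table under these symbols.

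**Figure D3:**
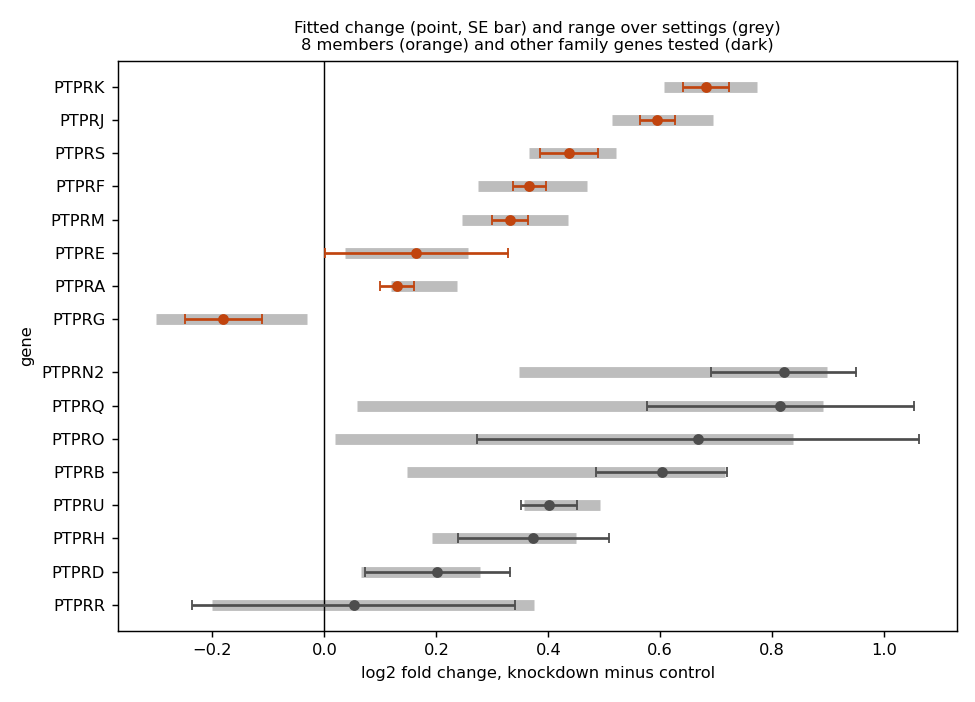
Fitted log2 fold change (point) with its SE (bar) for the 8 genes (orange) and the 8 other family genes fitted (dark), and the range over the fit and its 15 alternatives (grey). PTPRK has the largest value among the 8 at 0.68, PTPRG stays below 0 throughout its grey range, and the scarce genes have the widest bars.

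Promoter windows of 300 bases (250 before to 50 after an annotated start, RefSeq, GRCh38.p14) were matched by symbol for 7 of the 8 genes, with 12 windows in all, and PTPRJ had no entry. PTPRK, with the largest difference, and PTPRG, the lower gene, are shown to set their start regions side by side, 5′ to 3′ on the gene's strand, with GGGCGG (the GC box bound by SP1-type factors) or its complement in capitals.
PTPRK: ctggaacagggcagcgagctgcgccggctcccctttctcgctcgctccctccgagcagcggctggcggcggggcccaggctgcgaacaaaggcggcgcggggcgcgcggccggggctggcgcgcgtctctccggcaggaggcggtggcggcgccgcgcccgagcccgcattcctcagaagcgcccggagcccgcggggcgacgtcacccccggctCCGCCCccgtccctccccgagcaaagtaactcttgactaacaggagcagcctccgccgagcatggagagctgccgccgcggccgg
PTPRG: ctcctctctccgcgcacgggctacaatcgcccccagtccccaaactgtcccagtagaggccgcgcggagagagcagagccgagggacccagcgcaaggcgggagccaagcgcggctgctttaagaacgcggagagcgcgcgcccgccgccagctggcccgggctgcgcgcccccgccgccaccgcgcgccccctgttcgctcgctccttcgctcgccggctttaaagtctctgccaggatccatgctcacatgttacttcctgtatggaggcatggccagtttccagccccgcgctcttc
The PTPRK window lies at chr6:128520550-128520849 on the minus strand and the PTPRG window at chr3:61561321-61561620 on the plus strand. Both were rich in CpG, with 44 and 34 CpG dinucleotides where the median over 35116 windows was 14. Their GC content was 76.3% and 68.7% against a median of 58.7%. The GC box, searched as GGGCGG on both strands, occurred 1 time in the PTPRK window and 0 times in the PTPRG window. It was present in 5 of the 12 windows and in 45.0% of all windows. CCAAT was present in 3 of the 12 (34.6% of all), TATAAA in 3 (11.5%), CACGTG in 1 (7.26%) and TGACTCA in 0 (4.95%). These are matches of letters in these windows, and several windows belong to the same gene.

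Genes known to act with these receptors were taken from lists made by their known roles, but with earlier results of these data known. Every list count from here on stands beside the shares over all genes tested: 44.2% called, 22.2% higher and 22.0% lower. If a list departs from these shares was not tested, and nothing is read from its counts. Among the extracellular ligands and co-receptors, 8 of 19 tested genes rose and 2 fell, while 9 did not pass the test (median log2 fold change 0.09). The median was 0.04 with the length offset, 0.17 with total-count scaling and 0.19 on log2(FPKM + 0.1). The contactin gene CNTN1, whose product binds the related receptor PTPRZ1, was the most abundant of the list per length, at 44.6 FPKM in controls. It fell from 409 ± 0.890 to 242 ± 6.87 CPM (SD, n = 3 each), a log2 fold change of -0.76 (SE 0.02) and adjusted p = 5.4e-31 by edgeR. The heparan sulfate proteoglycan genes SDC4 and GPC6 rose, SDC4 from 30.9 ± 0.731 to 53.2 ± 1.45 CPM (log2 0.78, SE 0.04) and GPC6 from 18.7 ± 0.585 to 33.0 ± 2.05 CPM (log2 0.82, SE 0.05).

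Of the 12 proteases that cut these receptors 6 rose, 1 fell and 5 were not called, with a median of 0.10. With total-count scaling 9 were higher and the median was 0.17, on log2(FPKM + 0.1) the median was 0.19, and with the length offset 4 were higher, 2 lower and the median was 0.02. FURIN, the convertase that cleaves LAR-type and R2B receptors on their way to the surface, rose from 65.8 ± 2.64 to 83.9 ± 2.20 CPM (log2 0.35, SE 0.03). ADAM17, a sheddase, fell from 75.7 ± 1.77 to 63.1 ± 0.237 CPM (log2 -0.26, SE 0.03), which was -0.13 on log2(FPKM + 1). APH1B, a gamma-secretase subunit, rose from 23.8 ± 0.984 to 34.1 ± 0.459 CPM (log2 0.52, SE 0.05). PSENEN, another subunit and the most abundant of the list per length, had 0.01 (SE 0.03) and was called only with total-count scaling, at 0.09. Its value was -0.01 without control replicate 2 and -0.02 without knockdown replicate 3.

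Inside the cell, 5 of 12 scaffold and adaptor genes rose and 4 fell, with 3 that did not pass (median 0.07, and -0.01 with the length offset). On log2(FPKM + 1) the count was 7 higher and 1 lower with a median of 0.13, with total-count scaling 7 higher and 2 lower with a median of 0.14, and on log2(FPKM + 0.1) the median was 0.17. Without knockdown replicate 3 the median was 0.03. CTTN, the actin regulator cortactin, rose from 176 ± 1.86 to 209 ± 3.10 CPM (log2 0.24, SE 0.02), and EVL, of the Ena/VASP family, from 18.5 ± 0.401 to 23.9 ± 1.99 CPM (log2 0.37, SE 0.06). VASP, the most abundant of the list per length, rose by 0.11 (SE 0.02). The liprin gene PPFIA4 fell from 71, 58 and 68 counts in controls to 30, 35 and 33 in knockdown libraries (log2 -1.09, SE 0.20), which was -0.54 on log2(FPKM + 0.1) and -0.11 on log2(FPKM + 1).

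R2B receptors act on cadherin-catenin complexes, and the list for these also holds the afadin gene AFDN and the plakophilin genes PKP2, PKP3 and PKP4. Of its 13 genes tested 9 rose, 0 fell and 4 were not called by edgeR, with a median of 0.20. The genes that rose include AFDN, PKP2 and PKP4, and the scarce CDH5 at 0.802 CPM in controls. Over all genes tested 22.2% were called higher and 22.0% lower, and the list was made with results of these data known. All 13 fitted differences were above 0 in this fit and with DESeq2, so no threshold could give a fall in either. With the length offset 12 of the 13 were above 0 and 7 were called higher. The E-cadherin gene CDH1 rose from 86.2 ± 2.07 to 122 ± 3.28 CPM (log2 0.50, SE 0.03), the N-cadherin gene CDH2 from 25.97 ± 1.68 to 40.7 ± 0.689 CPM (log2 0.65, SE 0.05) and the alpha-catenin gene CTNNA1 from 242 ± 2.995 to 290 ± 3.26 CPM (log2 0.26, SE 0.02). The plakoglobin gene JUP, the most abundant of the list per length, rose by 0.11 (SE 0.03), by 0.07 without knockdown replicate 3.

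Among the kinases, 4 of 7 Src family kinase and regulator genes rose and 1 fell, and 2 did not pass (median 0.23, which was 0.36 without control replicate 1 and 0.15 on log2(FPKM + 1)). SRC, the most abundant of the list per length and a substrate of PTPRA, was the one that fell, from 218 ± 4.91 to 175 ± 1.53 CPM (log2 -0.32, SE 0.02), or by 0.20 on log2(FPKM + 1). CSK, which places the inhibitory phosphate on SRC, rose from 49.2 ± 0.423 to 63.6 ± 2.43 CPM (log2 0.37, SE 0.04), and FRK rose by 0.41 (SE 0.05). Of 18 receptor tyrosine kinase genes 8 rose and 5 fell, and 5 did not pass (median 0.22). The count was 10 higher and 2 lower with total-count scaling and 9 higher and 1 lower on log2(FPKM + 1). The median was 0.12 without control replicate 2, 0.10 with no filter on low counts and 0.10 on log2(FPKM + 1). The fibroblast growth factor receptor gene FGFR4 rose by 0.60 (SE 0.04) and the EGFR relative ERBB3 by 0.76 (SE 0.05), while the ephrin receptor gene EPHA2 fell by 0.54 (SE 0.04). MET, a substrate of PTPRJ, had the highest mean control FPKM of the list. Its control values, 16.36, 15.7 and 16.84, overlapped those of EPHA2, 16.85, 15.42 and 15.61, so these genes were not separated. The difference of MET was -0.10 (SE 0.03), a call that was lost with total-count scaling and that turned to 0.01 on both FPKM scales.

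The non-receptor tyrosine phosphatases, which share the catalytic loop but lack a receptor's outer part, went in both directions. Of 14 tested 5 rose and 3 fell, 6 did not pass, and the median was -0.0002. The side of 0 on which this median fell depended on the setting, with 0.08 under total-count scaling, 0.09 on log2(FPKM + 1), 0.11 on log2(FPKM + 0.1) and -0.04 with the length offset. PTPN13 rose by 0.54 (SE 0.08) and PTPN21 by 0.45 (SE 0.06), both with FERM domains. PTPN6, the SHP1 gene, fell from 35.7 ± 0.589 to 28.8 ± 0.979 CPM (log2 -0.31, SE 0.04), and by 0.17 on log2(FPKM + 1). PTPN12, the most abundant of the list per length, had -0.14 (SE 0.03), a call lost with total-count scaling and on both FPKM scales. The difference between this list and the receptor-type genes was not tested.

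**Figure D4:**
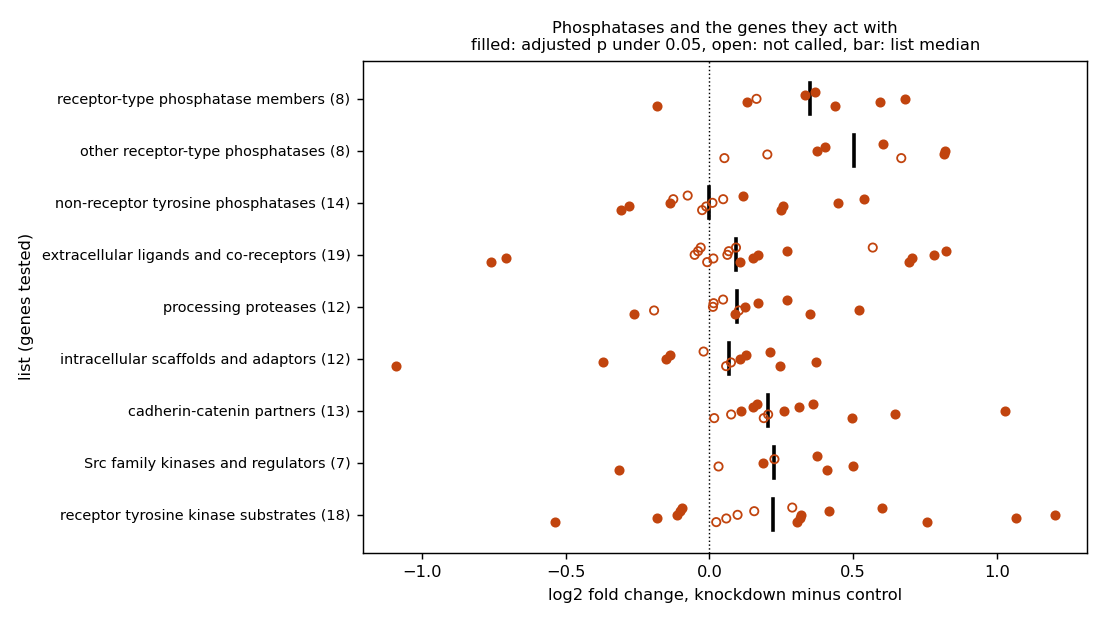
Log2 fold change of every tested gene in the receptor-type phosphatase sets and in 7 lists of genes they act with, filled where the adjusted p was under 0.05 and open where not, with a bar at each list's median. The cadherin-catenin list has its 9 called genes above 0, and the non-receptor phosphatase median lies at -0.0002.

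The genes whose log2 CPM followed PTPRK most closely over the 6 libraries were PDE8A (Pearson r 0.9993, log2 fold change 0.34), a cyclic AMP phosphodiesterase gene, and EPB41L1 (r 0.9993, log2 0.19), a membrane skeleton gene. For PTPRJ they were SFRP4 (r 0.9997, log2 1.10), a secreted Wnt antagonist gene, and TNKS1BP1 (r 0.9997, log2 0.41), a tankyrase-binding protein gene. These values describe 6 libraries in 2 groups that share the same contrast, and 1271 and 1386 of 10106 genes searched had an r above 0.95 with PTPRK and PTPRJ.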

How the data were processed

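RNA from 6 A549 libraries was measured by poly(A) RNA-seq (directional libraries, 150 nt paired ends, per the labels' protocols). The authors deposited raw read counts per gene and FPKM values rounded to 2 decimals. HISAT2, DESeq2 and the GRCh38 build are named in processing notes of the submitters, with no versions, and no source used here gives the counter, annotation or strand setting. Columns equal the sample titles. Genes passing edgeR's filterByExpr (minimum count 10) were scaled with TMM factors and fitted over all genes with edgeR's quasi-likelihood test (robust), with Benjamini-Hochberg adjustment (edgeR 4.0.16, limma 3.58.1, DESeq2 1.42.0, R 4.3.3). Log2 fold changes are knockdown minus control, with SE from the F statistic. The fit was tested on simulated counts. Of 30493 gene IDs, 96.9% matched GENCODE 29, used for lengths and sequences.

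The members and lists were chosen with earlier results of these data known. Besides the 8 genes and STAU1, the text names by rule every other family gene fitted, the 3 called genes of smallest adjusted p and the gene of highest control FPKM in each list, and 2 genes most like each of the 2 members with the largest difference. VPS16, PTPRG-AS1, the markers printed and the afadin and plakophilin genes were named after their values were seen. Alternatives were RLE and total-count scaling, no filter, DESeq2, limma-trend with a pseudocount of 1 or 0.1 on the FPKM values, a loess length offset (span 0.3), the replicate number as a block, both together, and each library left out in turn. Replicate pairs differed by more than sampling noise (chi-square per degree of freedom 1.78 to 2.88), so each library was counted on its own.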

Additional observations from a re-analysis of the deposited data

How the results depend on the processing

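Among the 8 genes, the sign of every fitted difference was the same under all 15 alternatives run, and between 6 and 7 of them were called in each. PTPRG was the gene whose call came and went. Under these alternatives the total of called genes, both directions together, stayed within 1.5 times of that in the fit used here. This held for all genes, for the 8 genes and for every list of partners, and STAU1 stayed called as lower. The counts by direction were less stable. Over all genes 3759 were called lower in the fit used here, 2407 with total-count scaling and 1552 on log2(FPKM + 1). The counts called higher were 3801, 5473 and 5276. MET turned from lower to 0.0061 on log2(FPKM + 1) and to 0.0064 on log2(FPKM + 0.1). Deviations of same-numbered libraries had r of 0.0403, 0.0185 and 0.0958 for replicates 1 to 3, and those of different-numbered libraries lay between -0.0911 and 0.0565. Control replicates 1 and 3 correlated best with their own number, and control replicate 2 with knockdown replicate 1, at 0.0565. All these values were small and do not settle a pairing, so the numbers were not taken to pair the samples. With the replicate block 7665 genes were called, against 7560 without it, and 7 of the 8 phosphatase genes in both. Depth limits PTPRE and the scarce family genes, whose counts per library were under 200.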
